A study of Mus musculus with 24 samples.

Results

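The 10 genes described here carry the main steps of MHC class I antigen presentation, and were chosen by symbol from the 27368 genes of the count table. All 10 passed the filter on low counts, as did 16560 genes in all. They are the class I heavy chains H2-K1, H2-D1 and H2-T23, the light chain B2m, the peptide transporter subunits Tap1 and Tap2, the loading factor Tapbp, the immunoproteasome subunits Psmb8 and Psmb9, and the transcriptional regulator Nlrc5. RNA was sequenced from 24 whole tumours, which grew under the skin of female C3H mice aged 6 to 8 weeks after injection of about 1000000 SCC7 cells, a mouse squamous cell carcinoma line. Cells of the NC groups held a vector without insert, and cells of the OE groups made additional miR-21-5p, a microRNA. The mice were untreated (sham), had only the tumour exposed to X-rays (IR, 8 Gy per day on 3 days), received olaparib, an inhibitor of the PARP enzymes that act at DNA breaks, or had both. Olaparib was injected at 50 mg/kg 2 h before irradiation, with a further dose on the day after the last fraction. This gave 8 groups of 3 tumours: NC sham, OE sham, NC olaparib, OE olaparib, NC IR, OE IR, NC IR plus olaparib and OE IR plus olaparib. The level of miR-21-5p was not analysed here, so the OE label was not checked. Each tumour carries its own number in the labels, and the p-values measure the spread between these tumours.

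MHC class I molecules show peptides from inside the cell to CD8 T cells. The proteasome cuts proteins to peptides, the TAP1 and TAP2 pump carries them into the endoplasmic reticulum, and tapasin (Tapbp) holds the empty heavy chain and B2m beside the pump until a peptide is bound. Interferon gamma raises the genes of the pathway together through factors such as IRF1, exchanges catalytic subunits of the proteasome for PSMB8 and PSMB9, and induces NLRC5, which acts with RFX, CREB/ATF and NF-Y proteins at class I promoters.

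For 19 of the 24 tumours the group in the written label is not the group coded in the identifier, and for 5 both give the same group. Groups here follow the code, a reading preferred with the result of a p53 target check known, so p-values for radiation are not independent of that choice. The summed level of 8 p53 targets ran from 1424 to 2821 CPM (reads per 1000000, TMM-scaled) in the 12 tumours coded as irradiated and from 920 to 1360 CPM in the 12 others. Libraries held 37099055 to 40004502 counted reads, and 4 stood apart. NC IR tumour I-739 had the lowest p53 sum of the irradiated tumours and, at 3024 CPM, the lowest sum of macrophage markers of all. NC sham tumour S-761 had the highest macrophage sum of the unirradiated tumours (14690 CPM), OE IR plus olaparib tumour EIO-744 was rich in fibroblast markers (127200 CPM) and NC IR tumour I-732 in skeletal muscle markers (13990 CPM). Of 11 markers of squamous epithelium, the integrin genes Itgb4 and Itga6 were well detected, with means of 303 and 152 CPM in irradiated and 260 and 141 CPM in unirradiated tumours. Defining genes of basal squamous cells were near 0 in most tumours, with Krt5 at a median of 0.582 CPM in irradiated and 0.829 CPM in unirradiated tumours and Trp63 at no more than 7.79 CPM. The sum of the 11 ran from 224 to 896 CPM after radiation and from 323 to 510.2 CPM without it.

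The promoters of 8 of the 10 genes were matched by symbol in RefSeq (GRCm38.p6), a C57BL/6 sequence, whereas C3H mice carry another MHC haplotype. Printed are 6 of the 8, those of the 4 members called after radiation and those of Tap1 and Psmb9, which start beside each other and were not called, so that the letters bound by known class I regulators can be read in both. Tapbp, which held only CCAAT, and Psmb8, which held none of the motifs searched, are not printed. Capitals mark any of 4 motifs, searched on both strands: AANNGAAA, the core letters bound by interferon regulatory factors; GGGNNTTCC, an NF-kB-like sequence; CCAAT, bound by NF-Y; and TGACG, bound by CREB/ATF proteins. Each stretch runs from 200 bases before to 20 bases after an annotated start of transcription. That of H2-K1 lies wholly inside the span given for the gene (33996012 to 34000619, minus strand). The start used for H2-K1 is thus not at the outer end of the gene.
H2-K1 promoter, chr17:34000328-34000547, minus strand: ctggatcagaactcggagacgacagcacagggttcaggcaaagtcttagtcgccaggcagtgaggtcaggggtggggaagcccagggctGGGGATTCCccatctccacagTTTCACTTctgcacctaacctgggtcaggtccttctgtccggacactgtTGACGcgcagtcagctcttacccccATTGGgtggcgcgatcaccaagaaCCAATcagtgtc
H2-D1 promoter, chr17:35262894-35263113, plus strand: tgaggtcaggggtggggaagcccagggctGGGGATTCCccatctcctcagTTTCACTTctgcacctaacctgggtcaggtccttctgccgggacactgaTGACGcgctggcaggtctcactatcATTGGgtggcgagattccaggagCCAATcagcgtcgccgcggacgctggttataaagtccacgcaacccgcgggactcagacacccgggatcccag
H2-T23 promoter, chr17:36032682-36032901, minus strand: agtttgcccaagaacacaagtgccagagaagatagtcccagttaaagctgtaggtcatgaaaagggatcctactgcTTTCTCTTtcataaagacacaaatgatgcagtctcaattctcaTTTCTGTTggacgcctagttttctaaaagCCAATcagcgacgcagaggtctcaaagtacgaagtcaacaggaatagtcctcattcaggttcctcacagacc
B2m promoter, chr2:122147487-122147706, plus strand: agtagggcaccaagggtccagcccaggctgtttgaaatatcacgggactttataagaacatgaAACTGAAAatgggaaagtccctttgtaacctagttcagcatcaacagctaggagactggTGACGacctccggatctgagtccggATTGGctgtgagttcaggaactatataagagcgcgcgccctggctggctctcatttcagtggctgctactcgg
Tap1 promoter, chr17:34187356-34187575, plus strand: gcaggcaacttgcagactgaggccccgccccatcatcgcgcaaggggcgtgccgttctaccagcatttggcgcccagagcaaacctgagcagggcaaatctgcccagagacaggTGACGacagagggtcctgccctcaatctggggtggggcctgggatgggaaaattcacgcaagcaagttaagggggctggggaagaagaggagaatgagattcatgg
Psmb9 promoter, chr17:34187311-34187530, minus strand: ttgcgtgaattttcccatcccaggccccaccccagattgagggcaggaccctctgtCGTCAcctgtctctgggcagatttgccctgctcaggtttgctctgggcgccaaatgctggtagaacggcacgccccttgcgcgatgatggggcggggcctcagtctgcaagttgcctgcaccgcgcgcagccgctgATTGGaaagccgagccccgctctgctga

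The AANNGAAA core lay in the 300-base window of 4 of the 8 genes searched, H2-K1, H2-D1, H2-T23 and B2m, against 23.9% of all 32851 promoters of that length. The GGGNNTTCC sequence was found in H2-K1 and H2-D1 only, and in 5.82% of all promoters. In both it stood just upstream of the AANNGAAA match, at base -111 and -90 in H2-K1 and at base -171 and -150 in H2-D1, and TGACG and CCAAT followed in the same order. Bases in H2-K1 are counted from a start inside the span of the gene, so they do not compare directly with those in H2-D1. CCAAT was found in 7 of the 8 (37.4% of all promoters) and TGACG in 5 of the 8 (20.8%). Tap1 and Psmb9 are transcribed away from each other from starts 226 bases apart, so their windows share 275 bases, and neither held the AANNGAAA core. Their CCAAT matches are the same site read from either side, and so are their TGACG matches. Each of these sites thus enters the counts above for both genes. The CCAAT site lies at base -222 of Tap1, outside the printed stretch of that gene. A match is a description of the letters and not a binding site, and the motifs were chosen with the response of the genes known.

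Levels of different genes were compared per kilobase of the longest protein-coding transcript in GENCODE M21. B2m had by far the highest level, with a median of 3903 CPM per kilobase over 24 tumours and a range of 2644 to 6994. H2-K1 followed at 1077 CPM per kilobase (673 to 1753), and neither gene's range met that of its neighbours. H2-D1 (376), Tapbp (288), H2-T23 (238), Psmb8 (232), Psmb9 (124), Tap2 (85.9) and Tap1 (81.2 CPM per kilobase) came next, each with a range that overlapped that of the gene after it. Nlrc5 was the lowest, at 16.7 CPM per kilobase (7.07 to 30.1), below every tumour's value for Tap1.

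**Figure D1:**
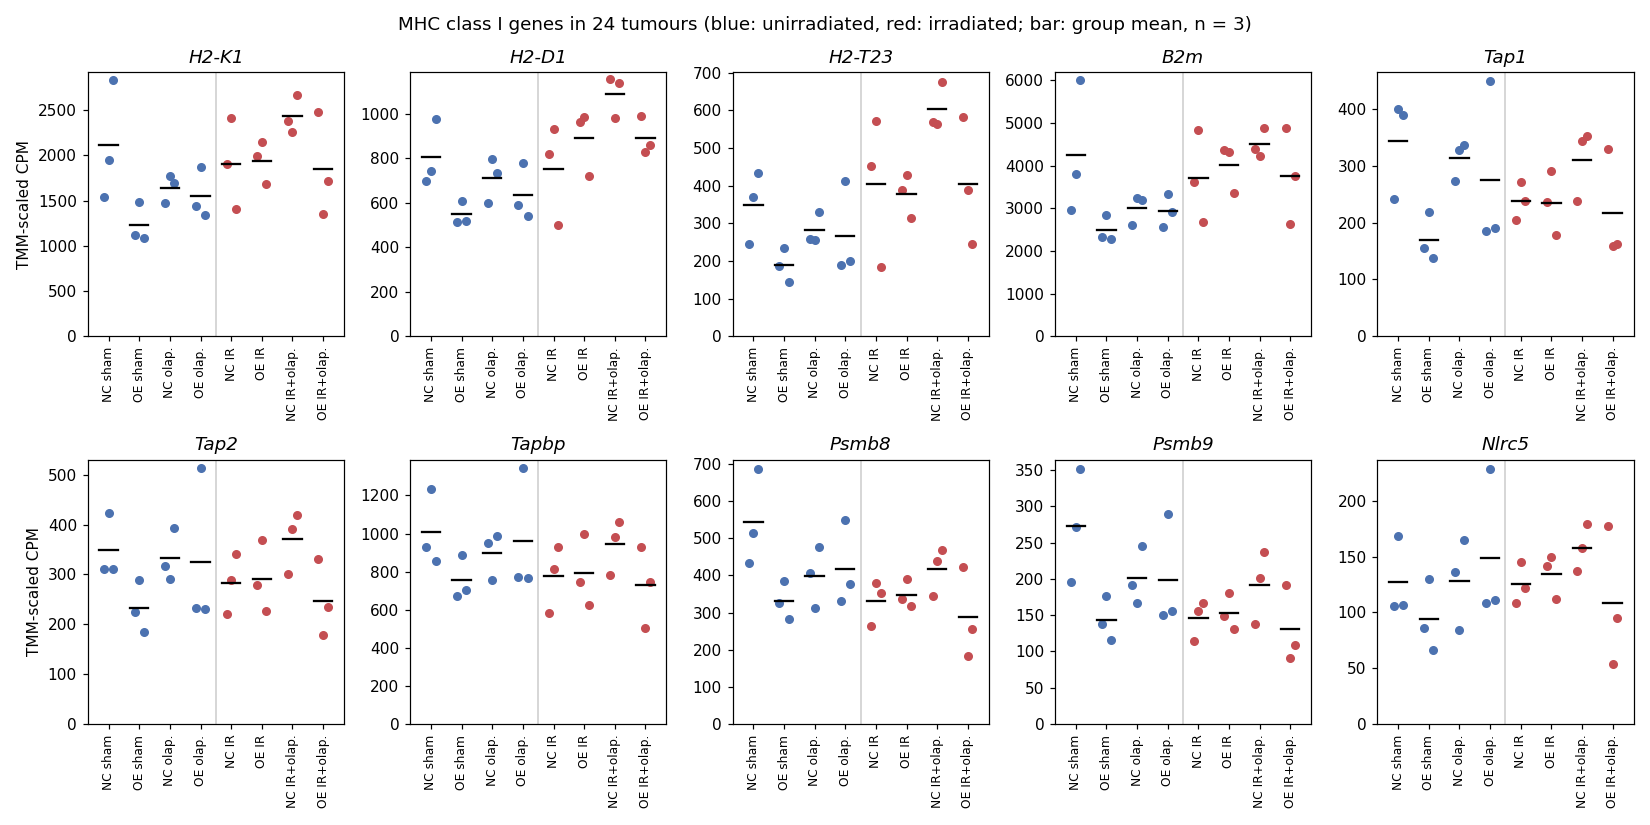
TMM-scaled CPM of each of the 10 genes (y axes from 0) in the 3 tumours of each of the 8 coded groups (x axes), with the group mean as a bar. Values of H2-T23 reached 675 CPM in irradiated tumours (red) and 433 CPM in unirradiated tumours (blue), while the highest values of Psmb9 lay in unirradiated tumours.

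Radiation, averaged over NC and OE with and without olaparib, went with higher levels of the 3 heavy chains and B2m. No member that makes, carries or loads the peptides was called. H2-T23 rose 1.66-fold, H2-D1 1.35-fold, B2m 1.28-fold and H2-K1 1.26-fold. No member fell by the test, and the estimates for Psmb8, Psmb9, Tap1, Tap2 and Tapbp were all below 0. Of the 10 members, 4 were called higher and 0 lower, where edgeR called 21.7% of all genes higher and 17.5% lower. The median log2 fold change of the 10 was 0.02, against 0.04 over all genes tested. In bulk tumours, a change in the cells that carry a transcript and a change in the transcript per cell cannot be told apart.

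H2-T23 (Entrez 15040, chromosome 17, 36029977 to 36032701, mm10) encodes the non-classical molecule Qa-1, which presents leader peptides of other class I chains to the NKG2A receptor of NK and T cells. Its lowest, median and highest levels were 185, 440 and 675 CPM in irradiated and 144, 250 and 433 CPM in unirradiated tumours. The ranges overlapped, with 6 of 12 irradiated tumours above every unirradiated tumour. The means were 447 ± 151 CPM (SD, n = 12) and 271 ± 93.6 CPM (SD, n = 12). The log2 fold change was 0.73 ± 0.19 (SE, edgeR adjusted p = 0.00599).

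H2-D1 (Entrez 14964, chromosome 17, 35263094 to 35267497) and H2-K1 (Entrez 14972, chromosome 17, 33996012 to 34000619) encode the classical heavy chains. H2-D1 had a lowest, median and highest level of 501, 949 and 1157 CPM in irradiated and 516, 654 and 978 CPM in unirradiated tumours. Its lowest irradiated value, in tumour I-739, lay below every unirradiated tumour, and 5 of 12 irradiated tumours lay above all unirradiated ones. Its log2 fold change was 0.43 ± 0.10 (SE, edgeR adjusted p = 0.00455). H2-K1 stood at 1352, 2072 and 2673 CPM in irradiated and 1090, 1512 and 2838 CPM in unirradiated tumours. Here no irradiated tumour exceeded the highest unirradiated tumour, NC sham S-761. The log2 fold change of H2-K1 was 0.33 ± 0.12 (SE, edgeR adjusted p = 0.0397).

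B2m (Entrez 12010, chromosome 2, 122147687 to 122153082), the light chain that every class I heavy chain needs to fold, stood at 2626, 4267 and 4889 CPM (lowest, median, highest) in irradiated and 2274, 2939 and 6015 CPM in unirradiated tumours. Its highest value was again that of NC sham tumour S-761, and the ranges overlapped. The log2 fold change was 0.36 ± 0.13 (SE, edgeR adjusted p = 0.0382). The calls of H2-K1 and B2m were narrow. Each was lost on leaving out any of 14 single libraries, with adjusted p up to 0.0754 for H2-K1 and 0.0738 for B2m, and both were lost without the filter on low counts (0.0829 and 0.0816) and with additive factors (0.053 and 0.0555). Those 14 libraries were I-732 and I-736 of NC IR, IO-731 of NC IR plus olaparib, O-722 and O-724 of NC olaparib, S-758 and S-759 of NC sham, EI-742 and EI-745 of OE IR, EIO-713 of OE IR plus olaparib, EO-701 and EO-762 of OE olaparib, and ES-706 and ES-741 of OE sham. The calls of H2-D1 and H2-T23 held in all 24 fits with a library left out. With groups read from the written label, none of the 4 passed (adjusted p = 0.0957 for H2-T23, 0.255 for H2-D1, 0.288 for H2-K1 and 0.545 for B2m), and 1 gene of 16560 was called.

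Without the 4 libraries that stand apart, the log2 fold changes of the 4 called genes were larger, at 0.89 for H2-T23 (edgeR adjusted p = 0.00106), 0.57 for B2m (0.000175), 0.54 for H2-D1 (0.00019) and 0.51 for H2-K1 (0.00076). That set was chosen after the data were seen. It takes out I-739, with the lowest H2-D1 level of all tumours, and S-761, with the highest H2-K1 and B2m levels. Larger estimates thus follow in part from the choice. With all 24 libraries, macrophage markers also differed in the averaged radiation comparison. Their summed level was between 3024 and 19890 CPM after radiation and between 5534 and 14690 CPM without it, with 8 of 12 markers called higher, 0 lower and none at 0 in all tumours. Neutrophil markers, at 26.6 to 452 CPM against 20.7 to 50.6 CPM, were higher too (6 of 6 tested). The highest of these sums was that of EIO-744, and the medians were 87.4 CPM after radiation and 29.9 CPM without it. Among these markers Csf3r had medians of 76.55 and 28.53 CPM, while Cxcr2, at 0.501 and 0.191 CPM, was near 0. Of other tissue markers, 3 of 8 for fibroblasts, 5 of 8 for skeletal muscle, 2 of 5 for adipocytes, 2 of 7 for endothelium and 3 of 11 for squamous epithelium were called higher and 0 lower. Of all genes, 21.7% were called higher and 17.5% lower. Median sums after and without radiation were 4981 and 5552 CPM for fibroblasts, and 181 and 190 CPM for endothelium. They were 213 and 96.1 CPM for skeletal muscle, 100 and 54.9 CPM for adipocytes, and 524 and 430 CPM for squamous epithelium. The highest fibroblast, endothelial and adipocyte sums were all those of EIO-744, and the highest muscle sum that of I-732. Immediate early genes, which respond within minutes to stress and tissue handling, were called higher in 7 of 8 cases (all but Atf3), with a median log2 fold change of 1.04. Their sum ran from 576.5 to 9468 CPM after radiation, the highest in tumour EIO-744, and from 429 to 1005 CPM without it. Of 11 tested markers of CD8 T and cytotoxic cells, 5 were called lower (Cd3d, Cd3e, Cd3g, Lck, Cd8b1) and 2 higher (Gzma, Gzmb), and the sum lay between 62.5 and 835 CPM after radiation and between 155 and 547 CPM without it. The part of these cells, and of handling, in the class I result was not tested.

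Counts of class I heavy chains can be shared between near-identical genes. In the C57BL/6 transcripts of GENCODE M21, 8.79% of the 50-base windows of H2-K1, 14.3% of those of H2-D1 and 28.8% of those of H2-T23 occur in transcripts of other genes. With 100-base windows these shares were 0%, 4.64% and 7.28%. The read length and the treatment of multiply aligned reads are not given in the sources used here, and the haplotype of C3H mice differs from the reference, so levels of single heavy chains are uncertain. H2-K1, H2-D1 and the H2-Q genes summed to a single feature rose by 0.33 ± 0.12 on the log2 scale (SE, edgeR adjusted p = 0.0315). B2m, Psmb8, Psmb9 and Nlrc5 shared no 50-base window with another gene.

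Tap1 (Entrez 21354, chromosome 17, 34187556 to 34197225) and Tap2 (Entrez 21355, chromosome 17, 34204479 to 34216321), the subunits of the peptide pump, were not called. Tap1 stood at 159, 238 and 352 CPM (lowest, median, highest) in irradiated and 137, 257 and 450 CPM in unirradiated tumours, and Tap2 at 178, 295 and 419 CPM against 185, 301 and 514 CPM. For both genes the irradiated and unirradiated ranges overlapped over most of their length. The log2 fold changes were -0.10 ± 0.17 and -0.05 ± 0.15 (SE, edgeR adjusted p = 0.65 and 0.801). Both estimates turned positive without OE olaparib tumour EO-703, at 0.02 and 0.06. Tapbp (Entrez 21356, chromosome 17, 33919478 to 33929290) ran from 506 to 1061 CPM, with a median of 798 CPM, in irradiated and from 673 to 1346 CPM, with a median of 873 CPM, in unirradiated tumours. Its log2 fold change was -0.16 ± 0.13 (SE, edgeR adjusted p = 0.341).

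Psmb8 (Entrez 16913, chromosome 17, 34198195 to 34201454) and Psmb9 (Entrez 16912, chromosome 17, 34182030 to 34187330) encode catalytic subunits of the immunoproteasome. Psmb9 had a lowest, median and highest level of 91.3, 152 and 237 CPM in irradiated and 116, 184 and 351 CPM in unirradiated tumours. Its log2 fold change of -0.37 ± 0.15 missed the threshold (SE, edgeR adjusted p = 0.0638), and so did that of Psmb8, -0.28 ± 0.13 (SE, edgeR adjusted p = 0.102). Psmb9 passed as lower without NC IR tumour I-739 (adjusted p = 0.0499) and without OE IR plus olaparib tumour EIO-713 (0.0189), and Psmb8 without tumour EIO-713 (0.0213). With tumours S-761, EIO-744 and I-732 left out together, the estimate of Psmb9 shrank to -0.23 (adjusted p = 0.239) and that of Psmb8 to -0.15 (adjusted p = 0.348). Nlrc5 (Entrez 434341, chromosome 8, 94434335 to 94527272) stood at 53.6, 139 and 180 CPM in irradiated and 66.6, 110 and 228 CPM in unirradiated tumours. Its log2 fold change was 0.09 ± 0.19 (SE, edgeR adjusted p = 0.743), and it turned to -0.04 without tumour EIO-713.

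**Figure D2:**
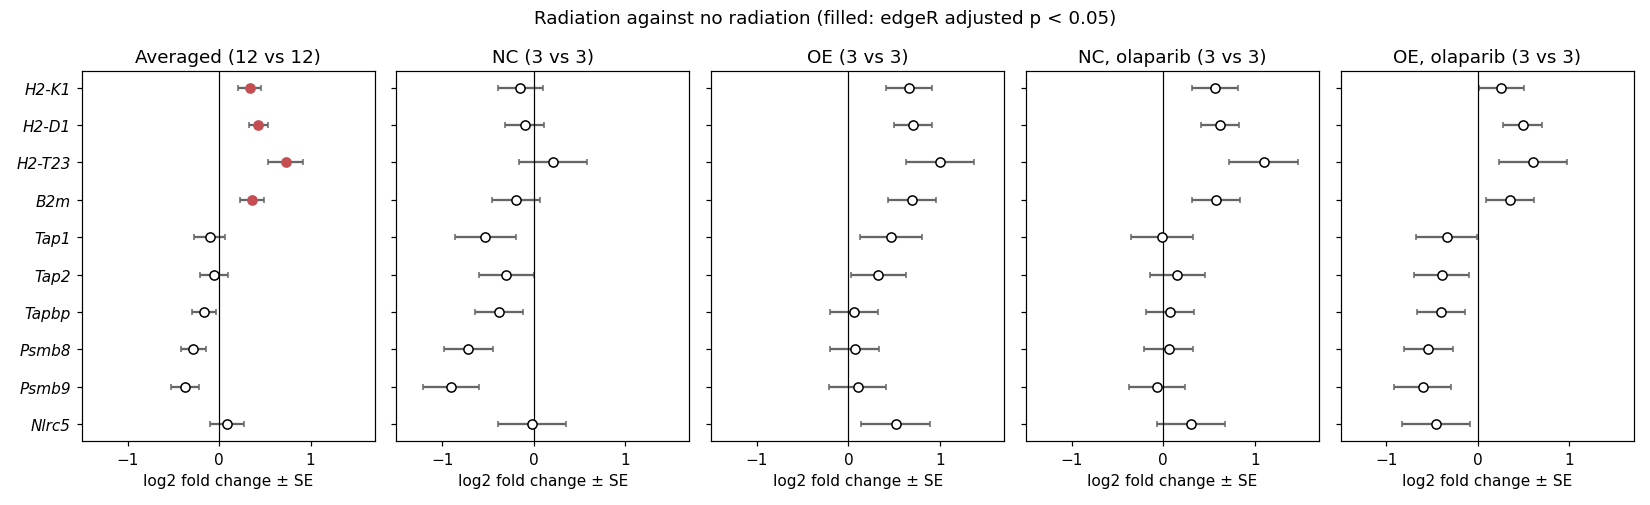
Log2 fold change with its SE (x axes) of each gene (y axis) for radiation averaged over 12 against 12 tumours and within each of 4 strata of 3 against 3. Filled points passed edgeR's adjusted p, which only H2-K1, H2-D1, H2-T23 and B2m did, and only in the averaged comparison.

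The contrast between heavy chains and processing genes also appeared inside single tumours, where scaling plays no part. Of 20 pairs of a heavy chain or B2m with Tap1, Tap2, Tapbp, Psmb8 or Psmb9, all 20 had a higher median count ratio in irradiated tumours. H2-T23 per Psmb9 had a lowest, median and highest ratio of 1.10, 2.82 and 4.26 in irradiated and 1.23, 1.34 and 1.54 in unirradiated tumours. In 11 of 12 irradiated tumours it lay above all 12 unirradiated tumours, the exception being NC IR tumour I-739. B2m per Psmb9 ran from 16.0 to 34.7 (median 27.3) in irradiated and from 11.6 to 19.6 (median 16.6) in unirradiated tumours. There too 11 of 12 irradiated tumours lay above every unirradiated tumour, as for H2-K1 and H2-D1 per Psmb9 and for H2-T23 per Tap1 and per Psmb8. The ratios with Tap2 and Tapbp overlapped more, and for H2-K1 and B2m no irradiated tumour lay above all unirradiated ones. These ratios use the same libraries as the fold changes and are a description.

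**Figure D3:**
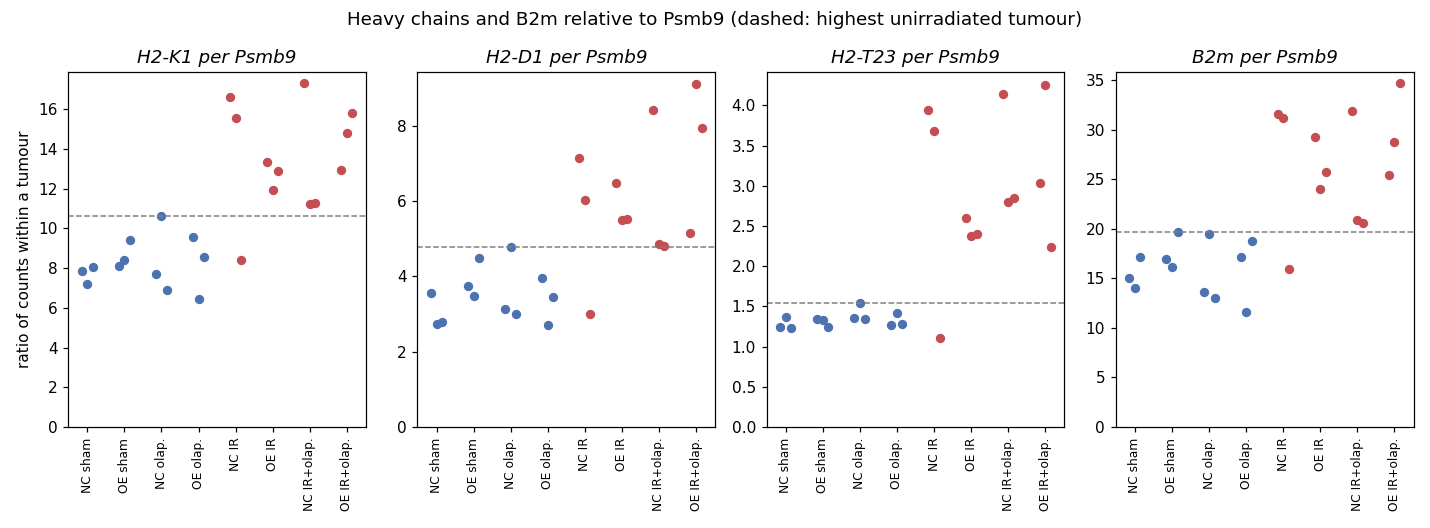
Ratio of the counts of H2-K1, H2-D1, H2-T23 and B2m to those of Psmb9 within each tumour (y axes from 0) in the 8 coded groups (x axes), with the highest unirradiated tumour as a dashed line. In each panel 11 of 12 irradiated tumours (red) lie above the line.

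Within OE, radiation was compared with sham in 3 against 3 tumours. H2-T23 stood at 387, 429 and 313 CPM in OE IR and at 185, 235 and 144 CPM in OE sham tumours. H2-D1 stood at 965, 989 and 722.9 CPM against 516, 610 and 518 CPM, and B2m at 4367, 4317 and 3366 CPM against 2335, 2845 and 2274 CPM. All 3 irradiated tumours lay above all 3 sham tumours for H2-T23, H2-D1, B2m and H2-K1, 4 of the 10 members, as for 17.3% of all genes. The log2 fold changes were 1.00 ± 0.38, 0.70 ± 0.21, 0.69 ± 0.26 and 0.66 ± 0.25 (SE, edgeR adjusted p = 0.218, 0.126, 0.222 and 0.22). None of the 10 members was called, where edgeR called 0.181% of genes higher and 0.0664% lower, and 4 members had an unadjusted p under 0.05. A fit on OE IR and OE sham alone called 4 members, as did limma voom with sample quality weights, and DESeq2 called 1. Without NC IR tumour I-739, which enters the estimate of spread alone, edgeR called 1.

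Within NC given olaparib, the same 4 genes lay above the unirradiated tumours. H2-T23 stood at 570, 564 and 675 CPM in NC IR plus olaparib and at 259, 256 and 330 CPM in NC olaparib tumours, and H2-D1 at 1157, 981 and 1138 CPM against 601, 797 and 737 CPM. H2-K1 and B2m did not overlap either, so 4 members lay wholly above, as did 17.7% of all genes. The log2 fold changes were 1.10 ± 0.38 for H2-T23, 0.62 ± 0.21 for H2-D1, 0.58 ± 0.26 for B2m and 0.57 ± 0.25 for H2-K1 (SE, edgeR adjusted p = 0.112, 0.11, 0.207 and 0.191). None of the 10 was called, against 0.821% of genes higher and 0.634% lower, and 4 had an unadjusted p under 0.05. A fit on the compared groups alone called 4, limma voom 4 and DESeq2 2. Without tumour I-739 edgeR called 2.

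In NC without olaparib the 4 genes overlapped between groups. H2-T23 stood at 452, 572 and 185 CPM in NC IR and 244, 369 and 433 CPM in NC sham tumours, where the low value is tumour I-739. Psmb9 stood at 115, 155 and 167 CPM against 196, 271 and 351 CPM, and Psmb8 at 264, 379 and 354 CPM against 433, 516 and 687 CPM. These 2 members lay wholly below sham, as did 14.8% of all genes. Their log2 fold changes were -0.90 ± 0.31 and -0.71 ± 0.27 (SE, edgeR adjusted p = 0.0655 and 0.0883). None of the 10 members was called, against 4.61% of genes higher and 5.4% lower, and 2 had an unadjusted p under 0.05. DESeq2 called 1 member lower, and edgeR called 1 without tumour I-739 and 2 without OE IR plus olaparib tumour EIO-744.

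In OE given olaparib, H2-D1 stood at 990, 831 and 862 CPM after radiation and 591, 782 and 539 CPM without it. It was the only member whose groups did not overlap, where 11.6% of all genes lay wholly above. Its log2 fold change was 0.49 ± 0.21 (SE, edgeR adjusted p = 0.139). H2-T23 ranged from 244 to 582 CPM against 189 to 411 CPM (log2 fold change 0.60 ± 0.37, SE). None of the 10 was called, against 5.4% of genes higher and 1.37% lower, and 1 had an unadjusted p under 0.05. DESeq2 called none, limma voom called 3 higher, and edgeR called 1 lower without tumour EIO-713. A test of whether OE and NC differed in their radiation effect passed for 0 members (0.00604% of genes), and a test of that effect with minus without olaparib for 0 members (0% of genes), with 0 members at an unadjusted p under 0.05 in either. These tests average over strata. Tests added after the data were seen compared the OE and NC effects separately. Without olaparib, the effect of radiation in OE less its effect in NC was above 0 for all 10 members, with a median of 0.80, and under olaparib it was below 0 for all 10, with a median of -0.48. For H2-K1 the differences were 0.81 ± 0.35 and -0.31 ± 0.35 (SE, edgeR adjusted p = 0.241 and 0.999). The second difference minus the first had a median of -1.23 over the members. Each of these 3 tests passed for 0 members and for 0% of genes, with 4 members (H2-K1, H2-D1, B2m and Psmb9), 0 members and 5 members (the same 4 and Psmb8) at an unadjusted p under 0.05. The members vary together, so like signs over all 10, here and between OE and NC, are not separate results. The NC groups without olaparib hold I-739 and S-761, and OE IR plus olaparib holds EIO-744, which stand apart.

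OE tumours had lower estimates than NC tumours for all 10 members, with averaged log2 fold changes from -0.43 (Tap1) to -0.17 (Tapbp), and none was called by edgeR (0.217% of genes higher, 0.236% lower). At an unadjusted p under 0.05 stood 5 members, H2-K1, H2-T23, Tap1, Psmb8 and Psmb9, and limma voom called 1 member lower. Tap1 stood at 137, 188 and 450 CPM (lowest, median, highest) in OE and 204, 301 and 399 CPM in NC tumours, with 7 of 12 OE tumours below every NC tumour and 1, OE olaparib EO-703, above them all. The median over the members was -0.75 in sham tumours and -0.53 under radiation plus olaparib, with all 10 below 0 in both, and it was -0.03 under olaparib alone and 0.05 under radiation alone. In sham tumours Tap1 stood at 155, 219 and 137 CPM in OE and 241, 399 and 389 CPM in NC, and H2-K1 at 1120, 1480 and 1090 CPM against 1544, 1955 and 2838 CPM. All members but Tapbp and Nlrc5 lay wholly below NC, 8 of 10, as did 14.2% of all genes. The log2 fold changes were -1.01 ± 0.34 for Tap1 and -0.78 ± 0.25 for H2-K1 (SE, edgeR adjusted p = 0.227 and 0.204). None of the members and 0% of genes passed in that comparison, with 7 members at an unadjusted p under 0.05. Cell markers differed between these sham groups too. The sum of 11 CD8 T and cytotoxic markers was 155, 254 and 181 CPM in OE sham tumours. It was 262, 462 and 529 CPM in NC sham tumours, so these groups did not overlap. This was not particular to cytotoxic cells. Leukocyte marker sums were 1213, 1180 and 1022 CPM in OE sham and 1285, 1485 and 2383 CPM in NC sham tumours. Sums of neutrophil and squamous markers also lay wholly below NC sham, and those of endothelial, skeletal muscle and adipocyte markers wholly above it. In the averaged comparison 0 of 11 CD8 T and cytotoxic markers, 0 of 6 NK cell markers and 0 of 23 interferon-induced genes had an estimate above 0. Of the NK markers 1, Klrb1c, was called lower. The part of these cells in the class I levels was not tested. Under radiation alone the contrast ran from -0.10 to 0.25 over the members, and its difference from that in sham tumours is the difference without olaparib tested above, which passed for 0 members.

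Olaparib, averaged over 4 strata, moved no member by the test, and 0% of genes passed. The members' log2 fold changes ran from -0.02 (B2m) to 0.22 (H2-T23), with 0 at an unadjusted p under 0.05 and none called by DESeq2 or limma voom. H2-T23 stood at 189, 359 and 675 CPM (lowest, median, highest) with olaparib and 144, 341 and 572 CPM without it. Added to radiation in NC, olaparib went with H2-D1 at 1157, 981 and 1138 CPM against 820, 934 and 501 CPM. The low value is tumour I-739. H2-D1 was the only member whose groups did not overlap, where 3.82% of all genes lay wholly above, and the log2 fold change of 0.54 ± 0.21 missed the threshold (SE, edgeR adjusted p = 1).

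Across the 24 tumours the heavy chains and B2m varied together, and so did the other 6 members. The 6 pairs among H2-K1, H2-D1, H2-T23 and B2m had Pearson r of 0.83 to 0.97 on log2 CPM, and the 15 pairs among Tap1, Tap2, Tapbp, Psmb8, Psmb9 and Nlrc5 had r of 0.68 to 0.97. The 24 pairs across the sets had r of 0.14 (H2-D1 with Tapbp) to 0.70 (H2-K1 with Tap1), with a median of 0.46. Within the 12 irradiated tumours the median was 0.82 among the heavy chains and B2m, 0.92 among the others and 0.57 across. Within the 12 unirradiated tumours the sets hardly stood apart, with medians of 0.90, 0.80 and 0.78 and pairs across the sets at 0.32 to 0.98. Over all 24, r also takes in the difference between irradiated and unirradiated tumours. Libraries and scaling are shared by all pairs.

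**Figure D4:**
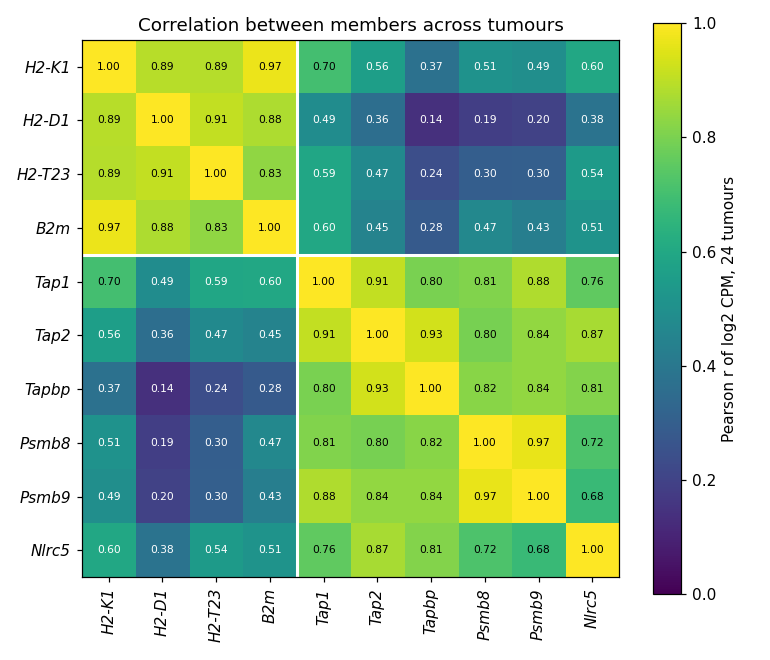
Pearson r of log2 CPM over 24 tumours for each pair of the 10 genes (both axes), with white lines between the heavy chains with B2m and the other 6 genes. The upper left block holds values of 0.83 to 0.97 and the blocks across the lines 0.14 to 0.70.

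Each member's level was set against those of Nlrc5, Irf1, Ifng and Ptprc over 24 tumours (two-sided permutation test of Pearson's r with 100000 draws, Benjamini-Hochberg adjusted over the 49 relations computed). Draws shuffled tumours freely across the coded groups, also within the irradiated and the unirradiated set. The permutation p-values thus also take in differences between groups. Relations passed for 8 of 9 other members with Nlrc5, 8 of 10 with Irf1 and 7 of 10 with Ifng. Within irradiated tumours 7, 9 and 4 passed, and within unirradiated tumours 6, 6 and 5. Over 24 tumours Tap2 had the highest r with Nlrc5, at 0.868 (permutation p = 1e-05, the smallest these draws can give, adjusted p = 6.12e-05) and Spearman's rho = 0.791 (permutation p = 1e-05, adjusted p = 4.08e-05). Without the 2 tumours farthest from the median of Nlrc5, r was 0.812, and it was 0.863 in irradiated and 0.895 in unirradiated tumours. By rho Tapbp was level with Tap2 (0.793), and the highest r was that of Psmb8 within irradiated (0.966) and of Tapbp within unirradiated tumours (0.917). H2-D1 had the lowest r with Nlrc5 over 24 tumours, at 0.379 (permutation p = 0.0691, adjusted p = 0.077) and rho = 0.433 (permutation p = 0.0366, adjusted p = 0.0408). Its r was 0.4 without 2 tumours, 0.394 in irradiated and 0.401 in unirradiated tumours, where B2m was lower (0.316). Ptprc, the pan-leukocyte gene CD45, passed with all 10 members over 24 tumours, with r from 0.5 (B2m) to 0.74 (Nlrc5). It passed with 9 members within irradiated and with 7 within unirradiated tumours. Those that did not pass within unirradiated tumours were H2-K1 (r = 0.39), H2-D1 (r = 0.347) and B2m (r = 0.284). Their adjusted permutation p was 0.251, 0.301 and 0.39. H2-T23 had r = 0.726 with Ptprc (permutation p = 9e-05, adjusted p = 0.000306) and rho = 0.702 (permutation p = 0.00027, adjusted p = 0.000575), with r = 0.743 without 2 tumours, 0.846 in irradiated and 0.663 in unirradiated tumours.

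The genes most like the mean of the members, by Pearson r over 24 tumours among 12579 genes, were the tapasin-related editor Tapbpl (0.92), the interferon-induced GTPases Gbp2 (0.91) and Gbp3 (0.90), the class I gene H2-Q4 (0.90), Klrk1, Zbp1, Tnfrsf18, Unc13d, Sp140 and H2-T22 (0.87). Of these, Klrk1 encodes a receptor of NK and T cells and Tnfrsf18 is carried by T cells. H2-Q4 and H2-T22 share 24.3% and 44.7% of their 50-base windows with other genes, the member heavy chains among them. Their likeness may thus come in part from shared reads, which was not tested. Within irradiated tumours their r was 0.84 to 0.96 and within unirradiated tumours 0.83 to 0.96.

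Of 11 other heavy chains tested, 4 were called higher and 0 lower by edgeR in the averaged radiation comparison, with a median log2 fold change of 0.09. The shares of all genes, for this count and that of class I-like molecules below, were 21.7% higher and 17.5% lower. H2-T24 stood at 29.4, 92.3 and 156 CPM (lowest, median, highest) in irradiated and 23.5, 37.8 and 62.0 CPM in unirradiated tumours, and 10 of 12 irradiated tumours lay above all others. Its log2 fold change was 1.28 ± 0.22 (SE, edgeR adjusted p = 0.000401). H2-Q1 rose by 0.39 ± 0.08 (adjusted p = 0.00126). Of its 50-base windows 22.9% occur in transcripts of other genes, H2-D1 and H2-T23 among them, so its counts may not be separate from theirs. H2-M9 and H2-Q10 were called at mean levels of 0.441 and 0.606 CPM. H2-Q4 (0.13, adjusted p = 0.375), H2-M3 (0.09, adjusted p = 0.541) and H2-T22 (0.01, adjusted p = 0.978) did not pass. H2-Q6 and H2-Q7 had median counts of 12.5 and 11.5 reads per library. Among class I-like molecules 3 of 10 were called higher, Fcgrt, the neonatal Fc receptor that pairs with B2m (1.30 ± 0.23, adjusted p = 0.000594), Procr (0.70, adjusted p = 0.000334) and Mr1 (0.30, adjusted p = 0.0402).

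Of 51 tested genes of peptide supply in 4 lists, 9 were called lower (17.6%) in the averaged radiation comparison, close to the share of all genes (17.5%), and 2 were called higher (3.92%, against 21.7% of all genes). Of 12 tested loading factors and chaperones, Pdia3, which bonds with tapasin, rose by 0.18 ± 0.07 on the log2 scale (SE, edgeR adjusted p = 0.0364) and Bcap31 by 0.17 ± 0.05 (adjusted p = 0.018). Tapbpl (0.00), Calr (0.26, adjusted p = 0.0905) and Canx (-0.07) did not pass. Of 9 trimming peptidases 2 were lower, Blmh (-0.44 ± 0.06, adjusted p = 0.000124) and Thop1 (-0.50 ± 0.17, adjusted p = 0.03), and Erap1 was not called (-0.08). Psme3 was the only member of the immunoproteasome and PA28 list called (-0.26, adjusted p = 0.0389, 0 higher and 1 lower of 6). Psmb10 (-0.22), Psme1 (-0.17) and Psme2 (-0.20) did not pass. In the constitutive proteasome 6 of 24 genes were lower and 0 higher, led by Psmb4 (-0.34, adjusted p = 0.0044), Psma1 (-0.35), Psmb1 (-0.30) and Psma7 (-0.30), while the catalytic subunit genes Psmb5, Psmb6 and Psmb7 were not called. The median log2 fold change of that list was -0.15, and that of the immunoproteasome list -0.19.

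Regulators of class I were lower or not called, with 0 higher and 6 lower of 18. The shares of all genes, for this and the interferon counts below, were 21.7% higher and 17.5% lower. Suz12 (-0.66 ± 0.10, edgeR adjusted p = 0.000183), Ezh2 (-0.79 ± 0.17, adjusted p = 0.00175) and Eed (-0.20, adjusted p = 0.022) encode core subunits of the repressive complex PRC2, while Nfyb (-0.43, adjusted p = 0.000393), Nfyc (-0.40, adjusted p = 0.000882) and Atf1 (-0.39, adjusted p = 0.00274) encode activators that bind CCAAT and TGACG. Ezh2 stood at 15.2, 41.4 and 72.2 CPM in irradiated and 64.3, 72.9 and 82.1 CPM in unirradiated tumours, and 11 of 12 irradiated tumours lay below all others. Irf1 (-0.04, adjusted p = 0.865) and Rfx5 (-0.21, adjusted p = 0.0554) did not pass. Of 13 genes of interferon gamma signalling 4 were higher (Socs3, Ptpn1, Usp18 and Stat2) and 1 lower (Ptpn2), and Ifng (0.14 ± 0.50, SE, at 0.248 to 8.27 CPM) did not pass. Of 23 interferon-induced genes 8 were higher and 0 lower, with a median of 0.54, among them Irf7 (1.12, adjusted p = 0.00121), Ido1 (1.34), Cd274, which encodes PD-L1 (1.12, adjusted p = 0.00362), and Rtp4 (0.54).

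Of 11 MHC class II genes 1 was called higher and 2 lower, where 21.7% and 17.5% of all genes were. Ctss, a lysosomal protease, was higher (0.98, edgeR adjusted p = 0.00385), H2-Ob (-2.26, adjusted p = 0.00279) and H2-Oa (-1.20, adjusted p = 0.00732) were lower, and the estimates of all 11 but Ctss were below 0. Ciita, the class II counterpart of Nlrc5, was not called (-0.33 ± 0.43, SE). Of 9 tested genes listed under surface turnover of class I, 5 were called higher and 1 lower, with a median of 0.31. A place in that list does not show that a gene acts on class I. Higher were Tmem127 (0.46 ± 0.08, adjusted p = 0.000291) and Susd6 (0.66 ± 0.13, adjusted p = 0.00106), which act together on class I at the membrane, and Sppl2a (0.33), Marchf2 (0.33) and Irgq (0.31). The ubiquitin ligase gene Marchf9 was lower (-0.31, adjusted p = 0.00928). Of 10 markers of dendritic cells, which carry antigen to T cells, 6 were lower and 1, Clec10a, was higher.

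**Figure D5:**
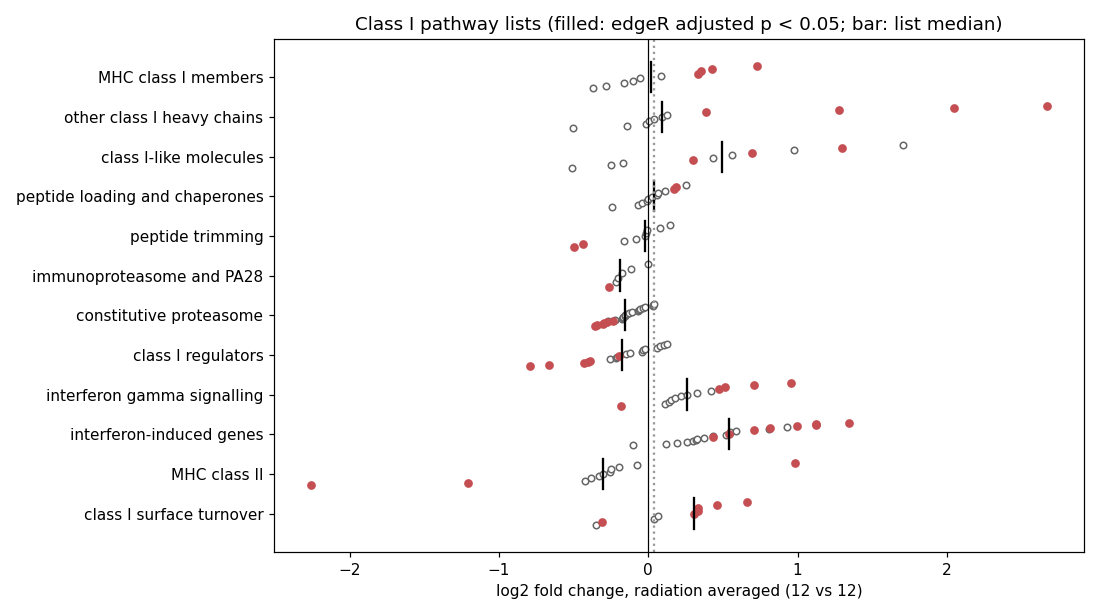
Log2 fold change for radiation averaged over 12 against 12 tumours (x axis) of each tested gene of the class I pathway lists (y axis), filled where edgeR's adjusted p passed, with the median of each list as a bar and that of all genes (0.04) as a dotted line. The interferon-induced list has a median of 0.54 and the constitutive proteasome list a median of -0.15.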

How the data were processed

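The table deposited by the authors holds raw, unscaled read counts of 27368 genes, each with its Entrez number and symbol, in each tumour. Per the submitters' processing notes, fastp, HISAT2 and HTSeq were used with mm10. Versions, annotation, strand setting and the handling of multiply aligned reads are not given in the sources used here, so overlapping, antisense and near-identical genes are uncertain. No pair of tumours in a group was a copy of a single library (lowest chi-square per gene 14.4).

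The members, gene lists, motifs and rules were chosen with earlier results of these data known. All 10 members are named in every comparison, and of each list up to 4 called genes with the smallest p plus a set named whatever its values. A few results are not reported here. Groups were compared with edgeR 4.0.16 (R 4.3.3, TMM, filterByExpr, quasi-likelihood F-tests, 8 coded groups, 24 libraries, Benjamini-Hochberg over 16560 genes, called below 0.05), after a run on simulated data. Log2 CPM used a prior count of 0.5. Alternatives were DESeq2 1.42.0 size factors and test, limma 3.58.1 voom with sample quality weights, no filter, compared groups alone, additive factors, the written labels, summed heavy chains, and leaving out each library, 3 that stand apart, and those 3 with tumour I-739. The last, and 3 tests of differences between strata, were chosen after seeing the data. Correlations used Python 3.11.15 and NumPy 2.4.6. Gene positions and promoters are from RefSeq (GRCm38.p6, the same assembly as mm10). Reads were counted without molecular identifiers, so precision rests on the spread between tumours and not on counting error.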

Additional observations from a re-analysis of the deposited data

How the results depend on the processing

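Over the 12 counts of called members and the fold changes of the 10 genes, scaling by DESeq2 size factors kept each direction and side of the threshold. The 4 members called for radiation averaged became 2 with additive factors, 2 without a filter on low counts, 0 with the written labels, and 2 to 5 on leaving out a library (2 for each of 13 libraries left out in turn). The written labels also turned Psmb8 (0.0358), Psmb9 (0.0897), Tap1 (0.27), Tap2 (0.28) and Tapbp (0.18) positive, voom turned Tap1 (0.18) and Tap2 (0.10), leaving out the 3 libraries that stand apart turned Tap2 (0.0053), and leaving out single libraries gave -0.0443 to 0.19 for Nlrc5, -0.20 to 0.0243 for Tap1 and -0.11 to 0.059 for Tap2. Radiation in NC gave 1 called member with DESeq2 and 0 to 2 without a library. Radiation in OE gave 4 in the compared groups alone, 1 with DESeq2, 4 with voom, 2 without the 3 libraries, 3 without those and tumour I-739, and 0 to 1 without a library. Radiation under olaparib in NC gave 4, 2, 4, 1, 4 and 0 to 2 in the same order. Radiation under olaparib in OE gave 3 with voom and 0 to 1 without a library, and OE against NC averaged gave 1 with voom. The 3 differences between strata gave 0 under each alternative run. The cause was not tested. Of 322 values for single genes under an alternative, 272 kept direction and call, 36 lost the call, 3 gained it and 11 changed sign. No paired analysis was possible because tumour numbers are not shared between groups. Depth limited none of the members, whose lowest count in a library was 1691 reads (Nlrc5). With 3 tumours a group, changes of the size seen here within a stratum mostly missed the threshold.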
